A study of Mus musculus with 12 samples.

Results

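Respiratory complexes II to V are the enzymes of the inner mitochondrial membrane that take electrons from succinate and from coenzyme Q to oxygen and use the resulting proton gradient to make ATP. Complex II (succinate dehydrogenase) feeds electrons from the citric acid cycle into coenzyme Q, complex III passes them to cytochrome c, complex IV (cytochrome c oxidase) hands them to oxygen, and complex V (ATP synthase) makes ATP. Most subunits are encoded in the nucleus and some in mitochondrial DNA, and the beating heart muscle cell carries some of the highest levels of all of them. Several subunits exist as a heart and skeletal muscle isoform beside one found in most tissues.

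The 45 genes described here were chosen by symbol out of 54178 gene entries in a table of RNA counts from mouse hearts. They were the entries whose symbol begins as the nuclear subunits of complexes II to V do (Sdha to Sdhd, Uqcr, Cyc1, Cox4 to Cox8, Atp5), that had a mean of at least 1 CPM (counts per 1e6 counts of the library) over 12 libraries, and that did not carry a pseudogene name. The pattern matched 56 entries. Of these, 7 had pseudogene names and 4 lay below the minimum, namely Cox6b2 at 0.945 CPM, Cox7b2 at 0.0700 CPM, and Cox6c2 and Cox8c, both at 0. The lowest member inside the limit was Cox4i2 at 7.30 CPM. There were 4 members in complex II, 9 in complex III, 15 in complex IV and 17 in complex V. All 45 passed the filter on low counts and were among the 15226 genes tested. They lie on 18 chromosomes, with at most 5 on any of them (Cox6a2, Cox6b1, Cox7a1, Cox8b and Uqcrc2 on chromosome 7).

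The libraries came from whole hearts in 4 groups of 3: KO mice labelled exercise, KO mice labelled sedentary, Flox mice labelled exercise and Flox mice labelled sedentary. Flox mice are Cited4 flox/flox, with loxP sites around the gene for the transcriptional co-regulator Cited4. KO mice came from a cross of these with aMHC-cre mice, in which the cardiac myosin promoter drives cre in cardiomyocytes. No group carried cre with intact Cited4, so loss of Cited4 and presence of the transgene cannot be told apart. The labels give 8 weeks for every sample, spent sedentary or with a running wheel, and no strain, sex or age. The titles also carry bracketed codes whose treatment letter reads the other way from the treatment word. The groups follow the words. If the codes hold instead, each exercise over sedentary value and the interaction change sign, the KO over Flox values of the sedentary and exercise labels swap, and their average is as given. Animals are not identified in the labels, so each p-value reflects sample-to-sample spread, which may be technical.

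Cited4 itself had 3, 0 and 0 counts in KO exercise, 5, 2 and 0 in KO sedentary, 406, 261 and 431 in Flox exercise, and 276, 192 and 295 in Flox sedentary hearts. Every KO library was far below every Flox library. Library totals ran from 17465432 to 20467300 counts. The 45 subunits together took 2.68% to 3.05% of the counts in KO sedentary hearts and 2.81% to 3.48% in KO exercise hearts, against 3.09% to 3.48% in Flox exercise and 2.94% to 3.41% in Flox sedentary hearts.

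The libraries also differed in markers of cell types, and KO sedentary hearts stood apart in several of them. The summed level of 12 atrial cardiomyocyte markers was 2094 to 22753 CPM in KO sedentary and 616 to 4686 CPM in Flox sedentary hearts, so the ranges overlapped. Of the 12, 11 had a log2 fold change above 0, and 0 passed the adjusted threshold in edgeR. Separated groups, whose libraries did not overlap, were found for 2 of the 12, both higher in KO sedentary hearts (10.4% of all tested genes). Sln, Myl7 and Bmp10 were at 0 in at least 1 library. The summed level of 15 cardiomyocyte markers was 70413 to 86572 CPM in KO sedentary and 97337 to 102224 CPM in Flox sedentary hearts, with 15 of 15 at a log2 fold change below 0 (median -0.35). The summed level of 10 fibroblast markers was 2890 to 4017 CPM in KO sedentary and 2215 to 2418 CPM in Flox sedentary hearts, with 10 of 10 above 0. The summed level of the white adipocyte markers was alike, at 1006 to 1154 CPM in KO sedentary and 1007 to 1236 CPM in Flox sedentary hearts. Of 11 tested, 6 lay above 0 and 5 below. In edgeR 3 of the 11 passed the adjusted threshold as higher in KO sedentary hearts, where 0.125% of all genes passed in either direction. Cidec (a lipid droplet protein) was among these 3, with 8.25, 9.94 and 16.3 CPM in KO sedentary hearts, against 0.590, 0.210 and 0.0505 CPM in Flox sedentary hearts. Ucp1, the uncoupling protein of brown fat, had 22.8, 33.9 and 97 CPM in KO sedentary hearts, against 3.90, 0.158 and 0 CPM in Flox sedentary hearts. Of the 6 tested markers on the brown adipocyte list that holds Ucp1, 3 lay above 0 and 3 below (median 0.14). That list also holds the members Cox7a1 and Cox8b, and its summed level was 762 to 1044 CPM in KO sedentary and 966 to 1253 CPM in Flox sedentary hearts. Most of that sum is these members, with means of 555 and 415 CPM over all libraries, against 13.2 CPM for Ucp1. It is therefore no separate measure of brown fat. The summed level of 9 skeletal muscle markers, nearly all of it Acta1, was 179.6 to 368 CPM in KO sedentary and 24.8 to 334 CPM in Flox sedentary hearts. Of those tested 5 of 5 lay above 0 (median 1.45), and 2 were separated upward (10.4% of all tested genes). The skeletal myosin Myh4 was at 0 in every library, and Myh1 and Myh2 reached at most 0.118 and 0.166 CPM. Macrophage markers summed to 275 to 442 CPM in KO sedentary and 228 to 274 CPM in Flox sedentary hearts, with 8 of 8 above 0 (median 0.52). Schwann cell and neuron markers summed to 22 to 28.7 CPM in KO sedentary and 14.9 to 18.5 CPM in Flox sedentary hearts. Of those tested 6 of 6 lay above 0 (median 0.62), and 3 were separated upward (10.4% of all tested genes). In whole hearts, fewer cells of a type and less RNA per cell cannot be told apart, and the part of these differences in the results below was not tested.

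Under the sedentary label, almost every subunit had a lower level in KO than in Flox hearts, and none passed the threshold after adjustment in edgeR. The log2 fold change lay below 0 for 43 of 45 subunits, with a median of -0.31, where 50% of all tested genes lay below 0 and their median was 0.00. Of the 1217 genes at a mean of 100 CPM or more, 74.4% lay below 0, with a median of -0.15. With edgeR's quasi-likelihood test, 0 of 45 passed an adjusted p of 0.05, as 0.125% of all genes did. At an unadjusted p under 0.05 the test gave 21 subunits lower, against a background of 5.41%, and 0 higher, against 8.1%. Of the 1217 genes at 100 CPM or more, 219 were lower and 47 higher at that limit. In 22 subunits all KO sedentary libraries lay below all Flox sedentary libraries, against 7.93% of all genes and 20.2% of genes of 100 CPM or more, and in 0 did they lie above (10.4%). Without KO sedentary 1, 479 genes passed in place of 19, still with 0 of the 45 among them. With the mean of the atrial markers as a covariate the median was -0.18, with 40 of 45 below 0. DESeq2 passed 6 subunits at an adjusted p of 0.05, namely Sdhc, Cox5a, Atp5d, Atp5f1, Atp5g3 and Atp5k. Over all genes tested it passed 394. By complex the medians were -0.36 in complex II, -0.33 in complex III, -0.31 in complex IV and -0.29 in complex V. Single subunits ran from -0.81 (Atp5k) to 0.20 (Cox8a), and differences between the complexes were not tested.

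**Figure D1:**
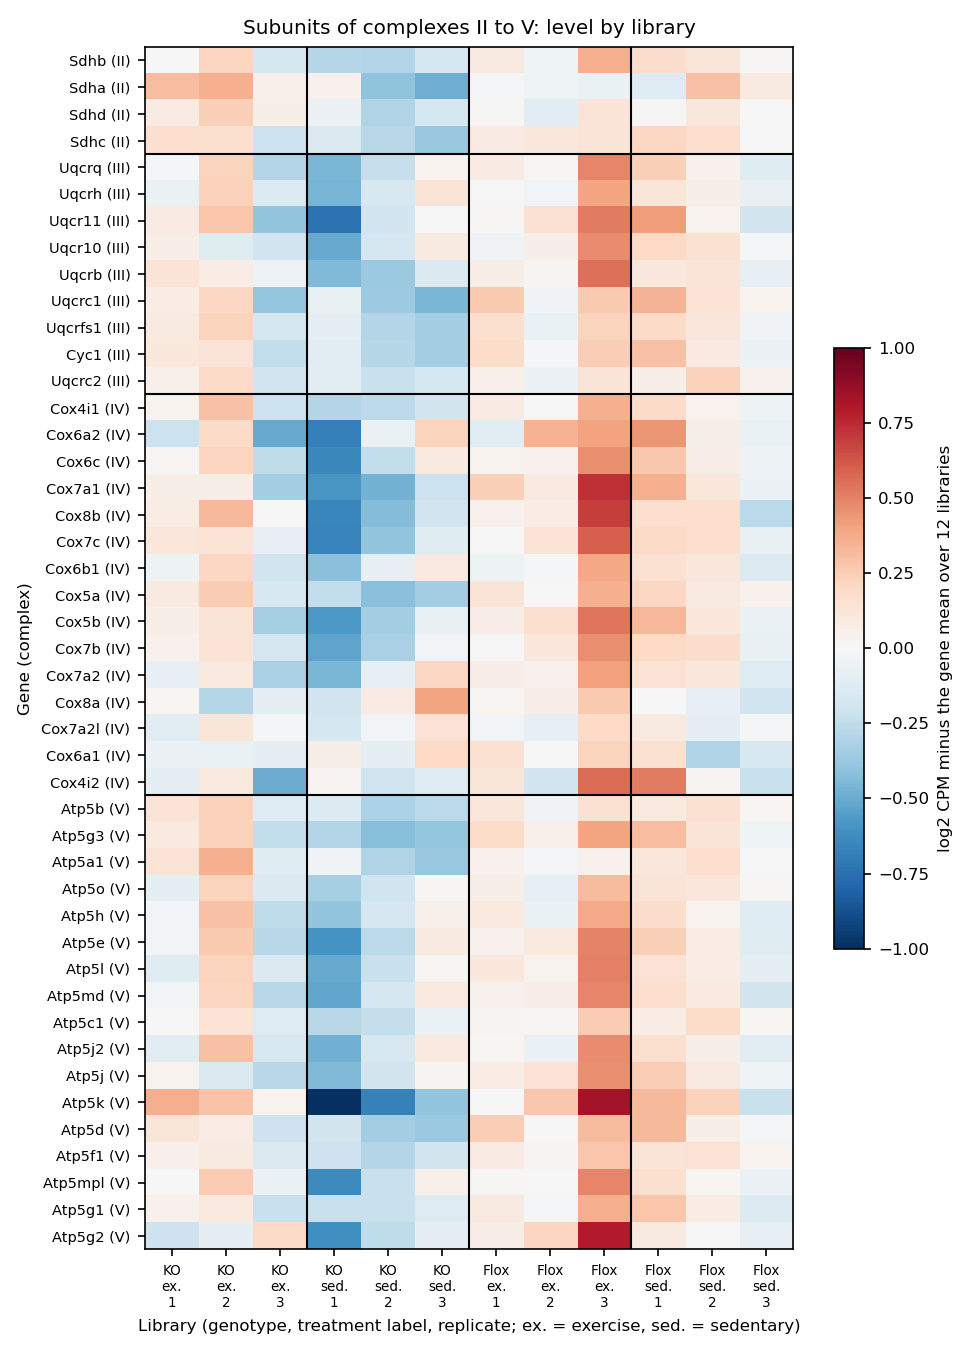
Levels of the 45 subunits in 12 libraries, as log2 CPM minus the gene's mean over all libraries (colour), with genes ordered by complex and, within a complex, by mean CPM per kilobase. Blue fills most of the KO sedentary columns, Flox exercise 3 is the reddest column, and Sdha does not follow the other rows.

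Complex II is the one complex of the 4 with no mitochondrially encoded subunit. Sdhb, its iron-sulfur protein, was the complex's most abundant transcript per length at 579 CPM per kilobase, and had 656, 759 and 579.7 CPM in KO exercise, 536, 535 and 579 in KO sedentary, 698, 637 and 841 in Flox exercise and 739, 712 and 660.04 in Flox sedentary hearts. The KO sedentary libraries lay below every Flox sedentary library. Its log2 fold change under the sedentary label was -0.36 ± 0.14 (SE), with an adjusted p of 0.284 in edgeR.

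Sdhc, a membrane anchor that helps hold the heme and the coenzyme Q site, had 367, 365 and 281 CPM in KO exercise, 294, 269 and 251 in KO sedentary, 345, 350.4 and 356 in Flox exercise and 377, 366 and 326 in Flox sedentary hearts. All KO sedentary values were below all Flox sedentary values, with a log2 fold change of -0.39 ± 0.13 (adjusted p = 0.215) in edgeR. Sdhd, the other anchor, had 358, 400.02 and 354 CPM in KO exercise, 326, 275 and 301 in KO sedentary, 343, 316 and 371 in Flox exercise and 342, 367 and 338 in Flox sedentary hearts. It too was separated under the sedentary label, at -0.22 ± 0.11 (adjusted p = 0.436) in edgeR. Sdha, the flavoprotein that oxidises succinate, had 1388, 1435 and 1161 CPM in KO exercise, 1158, 850.4 and 802 in KO sedentary, 1110.3, 1088 and 1072 in Flox exercise and 1029, 1376 and 1192 in Flox sedentary hearts. Under the sedentary label its groups overlapped, with KO sedentary 1 well above the other KO sedentary hearts, at -0.36 ± 0.16 (adjusted p = 0.36) in edgeR.

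In complex III, 9 of 9 subunits lay below 0 under the sedentary label, and 5 were separated: Uqcrb, Uqcrc1, Uqcrfs1, Cyc1 and Uqcrc2. Of all genes 7.93% were separated in this direction, and of those at 100 CPM or more 20.2%. Uqcrc1, a core protein of the matrix side, had 998, 1093 and 722 CPM in KO exercise, 897, 734 and 687 in KO sedentary, 1135, 925 and 1137 in Flox exercise and 1199.8, 1039 and 969 in Flox sedentary hearts. Every KO sedentary library was below every Flox sedentary library, and the log2 fold change was -0.47 ± 0.17 (adjusted p = 0.259) in edgeR. Cyc1, cytochrome c1, which passes the electron to cytochrome c, had 707, 719 and 556 CPM in KO exercise, 609, 541 and 520.3 in KO sedentary, 749, 649 and 779.97 in Flox exercise and 809, 706 and 633 in Flox sedentary hearts. It had the same order of groups, at -0.36 ± 0.14 (adjusted p = 0.296) in edgeR.

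Uqcrfs1, the Rieske iron-sulfur protein, had 762, 834 and 634 CPM in KO exercise, 668, 585 and 565 in KO sedentary, 800.3, 684 and 836 in Flox exercise and 815, 772 and 699 in Flox sedentary hearts. Its sedentary groups did not overlap, at -0.33 ± 0.14 (adjusted p = 0.321) in edgeR. Uqcrb, which lies near the coenzyme Q site, had 388, 372 and 340.3 CPM in KO exercise, 260.2, 273 and 319 in KO sedentary, 367, 359 and 516 in Flox exercise and 379, 385 and 333 in Flox sedentary hearts. Its sedentary groups did not overlap either, at -0.36 ± 0.15 (adjusted p = 0.318) in edgeR. In Uqcrq, Uqcrh, Uqcr10 and Uqcr11, which are small subunits like Uqcrb, the sedentary groups overlapped, since KO sedentary 3 lay above Flox sedentary 3.

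Uqcrq, the most abundant transcript of the complex per length at 1022 CPM per kilobase, had 504, 591 and 415 CPM in KO exercise, 369.6, 432 and 521 in KO sedentary, 537, 511 and 712 in Flox exercise and 601, 525 and 466 in Flox sedentary hearts. KO sedentary 3 lay above Flox sedentary 3, so the groups overlapped, and the log2 fold change was -0.27 ± 0.18 (adjusted p = 0.548) in edgeR. Uqcr10 had 303, 265 and 252 CPM in KO exercise, 204, 256 and 308 in KO sedentary, 282, 300.2 and 400.4 in Flox exercise and 331, 319.9 and 285 in Flox sedentary hearts. It showed the same overlap, at -0.29 ± 0.17 (adjusted p = 0.48) in edgeR.

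In complex IV, 13 of 15 subunits lay below 0 under the sedentary label. The 5 separated ones were Cox4i1, Cox5a, Cox5b, Cox7a1 and Cox7c, against 7.93% of all genes and 20.2% of those at 100 CPM or more. The values above 0 belonged to Cox8a and Cox6a1, the non-muscle isoforms of their pairs. Cox4i1, a subunit through which ATP slows the enzyme, was the most abundant of the complex at 1857 CPM per kilobase and had 1423, 1697 and 1199 CPM in KO exercise, 1135, 1155 and 1220.04 in KO sedentary, 1473, 1395 and 1779.8 in Flox exercise and 1581, 1426 and 1343 in Flox sedentary hearts. KO sedentary hearts all lay below Flox sedentary hearts, at -0.31 ± 0.15 (adjusted p = 0.389) in edgeR. Cox5a, which binds the matrix side of the enzyme, had 639, 718 and 542 CPM in KO exercise, 507, 449 and 471 in KO sedentary, 656, 599 and 770.1 in Flox exercise and 692, 641 and 618 in Flox sedentary hearts. Its KO sedentary libraries were the lowest of all 12, and the log2 fold change was -0.45 ± 0.14 (adjusted p = 0.186) in edgeR. Cox5b, a zinc-binding subunit, had 638, 669 and 486 CPM in KO exercise, 410.3, 484 and 581 in KO sedentary, 642, 683 and 886 in Flox exercise and 769, 659.9 and 585 in Flox sedentary hearts. KO sedentary 3 sat just under the lowest Flox sedentary library, and the log2 fold change was -0.45 ± 0.18 (adjusted p = 0.302) in edgeR.

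Cox7a1, the heart and muscle isoform of subunit 7a, had 562, 562 and 425 CPM in KO exercise, 359, 388 and 465 in KO sedentary, 637, 575 and 895 in Flox exercise and 689, 583 and 518 in Flox sedentary hearts. The highest KO sedentary value was below the lowest Flox sedentary value, and the highest KO exercise value below the lowest Flox exercise value. Its log2 fold change was -0.56 ± 0.19 (adjusted p = 0.22) under the sedentary label and -0.44 ± 0.19 (adjusted p = 0.619) under the exercise label in edgeR. Cox7a2l, a relative of Cox7a2 that takes part in joining complexes III and IV, was the member nearest to 0 under the sedentary label, at -0.0085 ± 0.12, with levels of 177 to 230.1 CPM over all libraries.

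In complex V, 17 of 17 subunits lay below 0 under the sedentary label. Of these 9 were separated, against 7.93% of all genes and 20.2% of those at 100 CPM or more. Atp5b, the catalytic beta subunit of the F1 head, was the most abundant of all 45 per length at 2311 CPM per kilobase, and had 4831, 5151 and 4016 CPM in KO exercise, 3993, 3524 and 3642 in KO sedentary, 4749.8, 4299 and 4886 in Flox exercise and 4693, 4881 and 4461 in Flox sedentary hearts. All KO sedentary hearts lay below all Flox sedentary hearts, at -0.33 ± 0.13 (adjusted p = 0.285) in edgeR. The alpha subunit Atp5a1 and the gamma subunit Atp5c1, the turning stalk, were separated too, at -0.32 and -0.29.

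Atp5k, subunit e of the membrane part, which helps ATP synthase form dimers, had the lowest log2 fold change of the 45. It had 254, 241 and 202 CPM in KO exercise, 95.2, 123 and 150.4 in KO sedentary, 197, 238 and 352 in Flox exercise and 247, 232 and 169.6 in Flox sedentary hearts. KO sedentary hearts were the lowest 3 of the 12, with the nearest other library, Flox sedentary 3, above them. The log2 fold change under the sedentary label was -0.81 ± 0.23 (adjusted p = 0.165) in edgeR, and the adjusted p was 0.0180 in DESeq2. Atp5g3, 1 of 3 genes for the same subunit c of the membrane ring, had 1110.2, 1218 and 877 CPM in KO exercise, 847, 773 and 795 in KO sedentary, 1178, 1077 and 1366 in Flox exercise and 1287, 1137 and 1008 in Flox sedentary hearts. KO sedentary hearts again held the lowest 3 values, at -0.51 ± 0.15 (adjusted p = 0.178) in edgeR. Among the rest, the delta subunit Atp5d had -0.43 ± 0.14 and the peripheral stalk subunit Atp5f1 -0.33 ± 0.12, both separated.

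**Figure D2:**
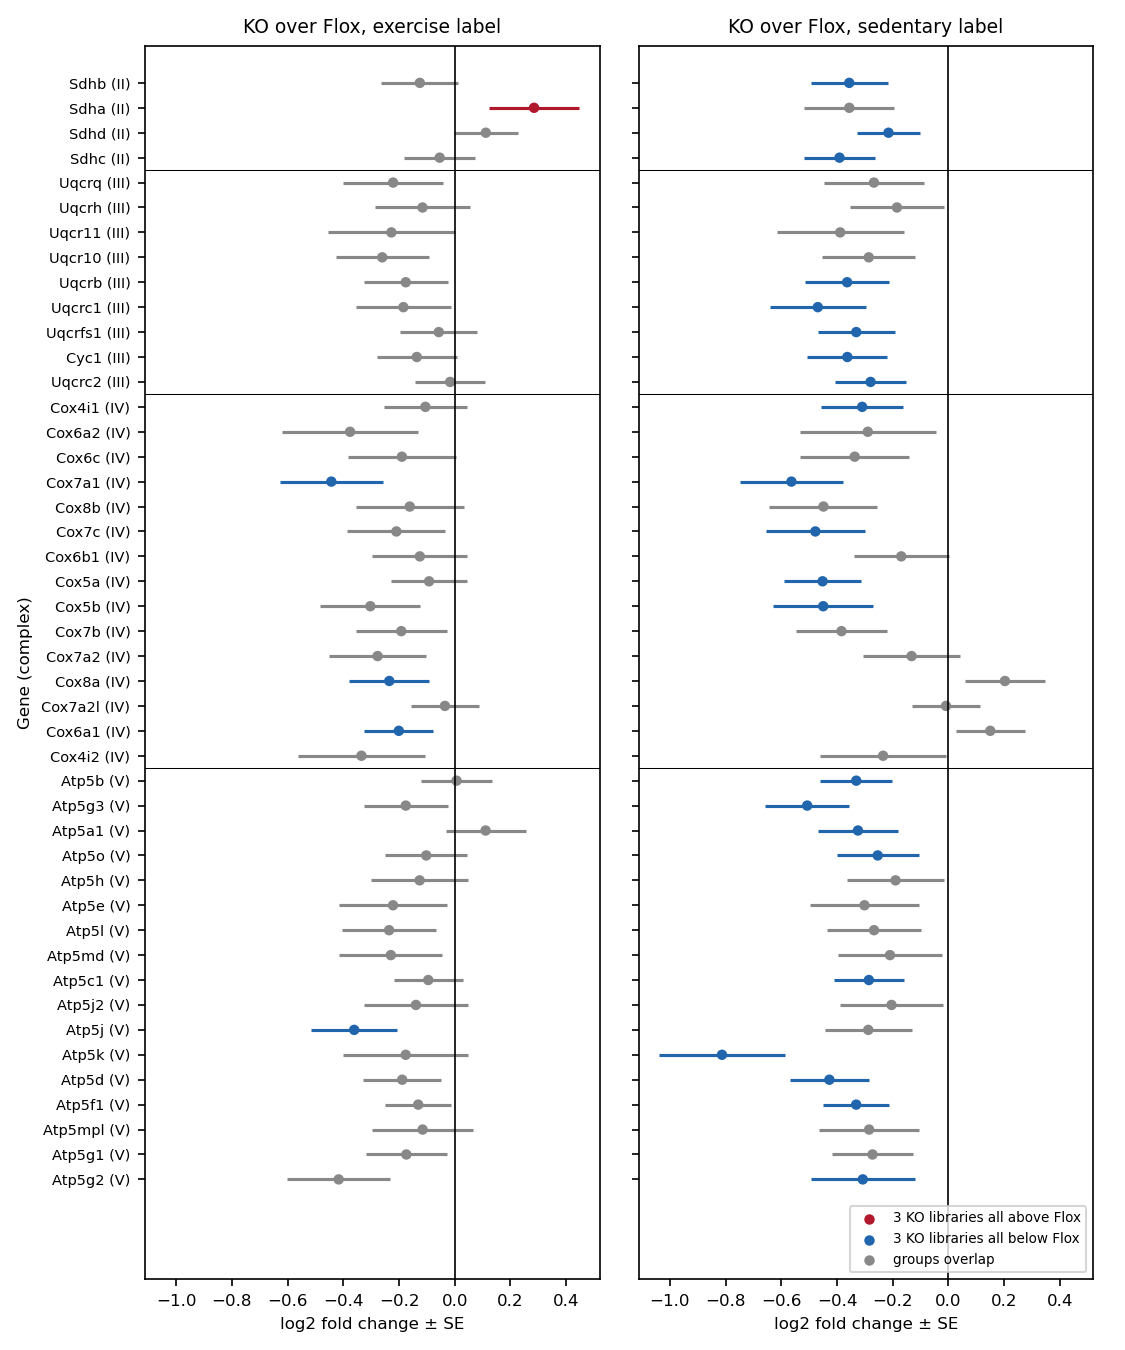
Log2 fold change of KO over Flox (points) with its standard error (bars) for each of the 45 subunits, under the exercise label (left) and the sedentary label (right). Blue and red mark subunits whose 3 KO libraries lie all below or all above the 3 Flox libraries: 22 are blue at right, and 4 are blue and 1 is red at left.

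Under the exercise label the same comparison of genotypes gave smaller values, and 1 Flox library carried much of them. The log2 fold change lay below 0 for 41 of 45 subunits with a median of -0.18. Of all tested genes 51.2% lay below 0, and of those at 100 CPM or more 45.4%, with a median of 0.02. Without Flox exercise 3, the library with the highest level of 34 of the 45 subunits, 27 lay below 0 and the median was -0.041. With edgeR 0 of 45 passed an adjusted p of 0.05 (background 0.00657%), and DESeq2 passed 0. At an unadjusted p under 0.05 edgeR gave 3 lower (background 4.07%) and 0 higher (3.87%). Separated groups were found for 4 subunits lower (background 7.23%), which were Cox7a1, Cox8a, Cox6a1 and Atp5j, and for 1 higher (7.61%), which was Sdha. A share of 4 in 45 is near the background. Under this label the log2 fold change of KO over Flox lay below 0 for 8 of 8 endothelial markers (median -0.35), with 5 separated and a summed level of 704 to 853 CPM in KO exercise and 893 to 1075 CPM in Flox exercise hearts. It lay below 0 for 5 of 5 blood markers (median -0.23), which summed to 579 to 762 CPM in KO exercise and 662 to 971 CPM in Flox exercise hearts, and for 7 of 15 cardiomyocyte markers (median 0.033). The part of these in the subunits' values was not tested.

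Atp5j, coupling factor 6 of the peripheral stalk, had 511, 449.5 and 412 CPM in KO exercise, 368, 438 and 508 in KO sedentary, 524, 551 and 688 in Flox exercise and 592, 529 and 484 in Flox sedentary hearts. The KO exercise values lay just below the Flox exercise values, at -0.36 ± 0.16 (adjusted p = 0.619) in edgeR. Sdha ran the other way from its complex partner Sdhb: KO exercise hearts lay above Flox exercise hearts, at 0.28 ± 0.16 (adjusted p = 0.685) in edgeR, where Sdhb had -0.13 ± 0.14. Sdhd lay above 0 as well, at 0.11, and complex II was split, with 2 subunits above and 2 below 0.

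Within KO hearts, most subunits had higher levels under the exercise than under the sedentary label. This comparison shares the KO sedentary libraries with the sedentary genotype comparison, so the values of both are not independent. The log2 fold change lay above 0 for 40 of 45, with a median of 0.25. Of all tested genes 50.7% lay below 0, and of those at 100 CPM or more 25.1%, with a median of 0.15. With atrial markers as a covariate the subunits' median was 0.14, and without KO exercise 2 it was 0.15. With edgeR 0 passed an adjusted p of 0.05 (background 0.0197%). At an unadjusted p under 0.05, 11 were higher (background 4.35%) and 0 lower (6.27%). Of the 1217 genes at 100 CPM or more, 198 were higher and 31 lower at that limit. The groups were separated upward in 11 (background 5.82%, and 14.2% of genes of 100 CPM or more) and downward in 0 (7.31%). DESeq2 passed 1 of 45, Atp5k, among 121 genes in all. In the same comparison 14 of 15 cardiomyocyte markers lay above 0 with a median of 0.25, the same as the subunits to 2 decimals, and summed to 79923 to 97679 CPM in KO exercise and 70413 to 86572 CPM in KO sedentary hearts. Of the atrial markers 11 of 12 lay below 0 (median -2.22), with a summed level of 779.9 to 3985 CPM in KO exercise and 2094 to 22753 CPM in KO sedentary hearts. Blood markers lay below 0 in 5 of 5 (median -0.39), with 4 separated and a summed level of 579 to 762 CPM in KO exercise and 878 to 947 CPM in KO sedentary hearts. Of the white adipocyte markers 9 of 11 lay below 0, 1 of them past the adjusted threshold in edgeR, and of the skeletal muscle markers 5 of 5 (median -0.99). The part of these in the subunits' values was not tested.

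Atp5k had a log2 fold change of 0.92 ± 0.23 (adjusted p = 0.234) in edgeR for this comparison, the furthest from 0 of the 45, and 0.00964 as its adjusted p in DESeq2. Every KO exercise value lay above every KO sedentary value. Cox8b followed at 0.56 ± 0.19 (adjusted p = 0.382) and Sdha at 0.50 ± 0.16 (adjusted p = 0.355) in edgeR, both separated. Without KO sedentary 1, Sdha was at 0.70 with an adjusted p of 0.0297 in edgeR, and was the only member of the 45 to pass in any fit that left out a library. Cox5a was at 0.41 ± 0.14 (adjusted p = 0.359), Atp5g3 at 0.41 ± 0.15 (adjusted p = 0.401) and Sdhd at 0.30 ± 0.11 (adjusted p = 0.406) in edgeR. The values below 0 were those of Cox8a (-0.23), Cox6a1 (-0.13), Cox4i2 (-0.043), Cox6a2 (-0.018) and Cox7a2 (-0.0069), all in complex IV.

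Within Flox hearts the values between treatment labels were closer to 0, and their direction rested on 1 library. The log2 fold change of exercise over sedentary lay above 0 for 38 of 45 with a median of 0.095. Of all tested genes 48.6% lay below 0, and of those at 100 CPM or more 56.5%. Without Flox exercise 3, 10 lay above 0 and the median was -0.036. With edgeR 0 of 45 passed an adjusted p (background 0%), and DESeq2 passed 0. At an unadjusted p under 0.05 edgeR gave 0 in either direction (background 3.86% higher, 3.56% lower), and 1 subunit, Cox8a, was separated upward (7.5%) and 0 downward (6.57%). Fibroblast markers lay above 0 in 10 of 10 (median 0.51), with a summed level of 2439 to 3558 CPM in Flox exercise and 2215 to 2418 CPM in Flox sedentary hearts. Macrophage markers lay above 0 in 8 of 8 (median 0.64) and cardiomyocyte markers in 1 of 15 (median -0.12). The part of these in the subunits' values was not tested.

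Averaged over the treatment labels, KO over Flox lay below 0 for 45 of 45 subunits with a median of -0.24, where 49.6% of all genes and 66.3% of those at 100 CPM or more lay below 0. With atrial markers as a covariate the median was -0.15, and without Flox exercise 3 it was -0.17. None passed in edgeR (0 of 45, background 0.0525%). At an unadjusted p under 0.05 edgeR gave 19 lower (background 5.64%) and 0 higher (5.98%). Of the 1217 genes at 100 CPM or more, 139 were lower and 43 higher at that limit. In 0 of 45 were the 6 KO libraries all below the 6 Flox libraries (background 0.256%). DESeq2 passed Cox7a1, Atp5g3 and Atp5f1, among 172 genes in all. Cox7a1 was the furthest from 0, at -0.50 ± 0.13 (adjusted p = 0.211) in edgeR, and 0.0154 was its adjusted p in DESeq2. In the same average 13 of 15 cardiomyocyte markers (median -0.15) and 8 of 8 endothelial markers (median -0.20) lay below 0. Fibroblast markers lay above 0 in 10 of 10 (median 0.30). The part of these in the subunits' values was not tested. Averaged over genotype, exercise over sedentary lay above 0 for 44 of 45 with a median of 0.16, where 48.9% of all genes and 28.8% of those at 100 CPM or more lay below 0. Again 0 passed in edgeR (background 0.0263%), 8 were higher at an unadjusted p under 0.05 (background 3.58%) and 0 lower (4.87%). Of the 1217 genes at 100 CPM or more, 65 were higher and 26 lower at that limit. The groups of 6 were separated upward in 0 (background 0.131%), and DESeq2 passed Atp5k, among 51 genes in all.

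The interaction, the exercise over sedentary difference in KO minus that in Flox, asks whether the genotypes differ in their difference between labels. It lay above 0 for 36 of 45 subunits with a median of 0.16, and 0 passed in edgeR (background 0%) or in DESeq2. Of all genes 52.1% lay below 0, and of those at 100 CPM or more 27.7%, with a median of 0.17, so the subunits lay where other abundant genes did. With atrial markers as a covariate 27 subunits lay above 0, with a median of 0.064, and the median was 0.058 without KO exercise 2 and 0.30 without Flox exercise 3. At an unadjusted p under 0.05 there were 2, Sdha at 0.64 ± 0.23 (adjusted p = 0.447) and Cox8a at -0.44 ± 0.2 (adjusted p = 0.503) in edgeR (background 4.37% above 0 and 5.52% below). So the differing counts of subunits in KO and in Flox hearts are not shown to be a difference between genotypes.

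**Figure D3:**
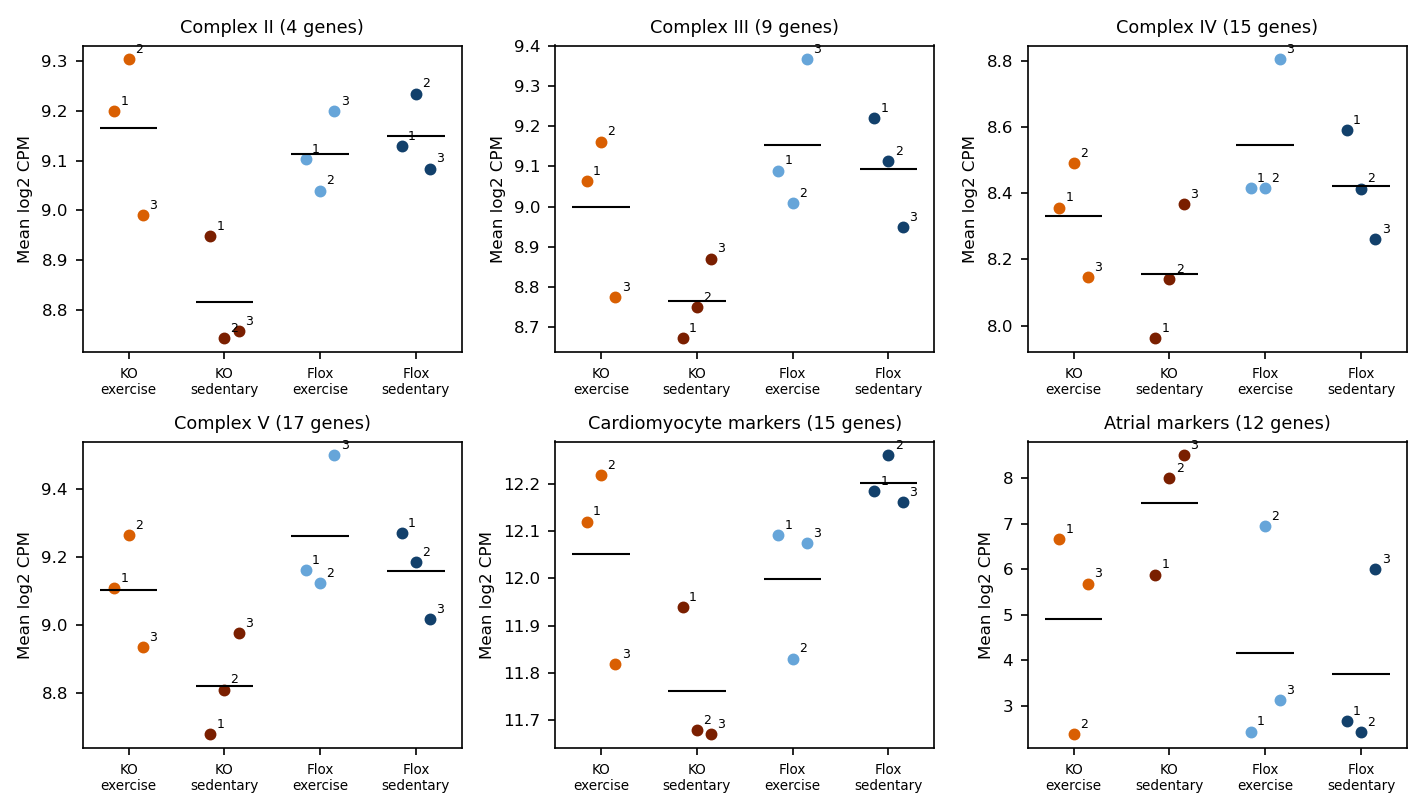
Mean log2 CPM of the subunits of each complex, and of 2 lists of cell type markers, in each library (points, numbered by replicate) with the group mean (line). KO sedentary hearts have the lowest group mean in all 4 complexes and in cardiomyocyte markers and the highest in atrial markers, and Flox exercise 3 is the highest library in complexes III, IV and V.

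The muscle isoforms of complex IV took a smaller share of their pairs in KO sedentary hearts than in any other library, for subunits 7a and 8. Cox7a1 made up 66.6%, 62.5% and 61.9% of the summed CPM of Cox7a1 and Cox7a2 in KO sedentary hearts, against 71.6%, 68.6% and 69.6% in Flox sedentary hearts. KO exercise hearts had 69.0% ± 1.46 and Flox exercise hearts 71.2% ± 1.94 (SD, n = 3 each). The KO sedentary values were the lowest of the 12. Cox8b, the muscle isoform of subunit 8 in mice, made up 71.5%, 70.7% and 69.6% of the sum with Cox8a in KO sedentary hearts, against 79.4%, 80.4% and 76.6% in Flox sedentary hearts. The means were 80.3% ± 3.20 in KO exercise and 79.2% ± 2.62 in Flox exercise hearts (SD, n = 3 each), and again no other library reached down to KO sedentary.

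Behind these shares, the log2 fold change under the sedentary label was lower for the muscle isoform than for its partner in both pairs. Cox8b had 426, 505 and 405 CPM in KO exercise, 257, 299 and 353 in KO sedentary, 417, 426 and 652 in Flox exercise and 454, 453 and 335 in Flox sedentary hearts. KO sedentary hearts 1 and 2 were the lowest, and KO sedentary 3 lay just above Flox sedentary 3, with a log2 fold change of -0.45 ± 0.19 (adjusted p = 0.337) in edgeR. Cox8a had 119, 96.3 and 109.6 CPM in KO exercise, 102, 124 and 154 in KO sedentary, 119, 123 and 141 in Flox exercise and 118, 110.4 and 102 in Flox sedentary hearts. KO sedentary 3 was the highest library of all, and the sedentary groups overlapped at 0.20 ± 0.14 (adjusted p = 0.571) in edgeR. That value was 0.032 without KO sedentary 3, 0.32 without KO sedentary 1 and 0.088 with the atrial covariate, where Cox8b was at -0.23. Cox7a2 had 233, 264 and 198 CPM in KO exercise, 179.8, 233 and 286 in KO sedentary, 259, 255 and 329 in Flox exercise and 273, 267 and 226 in Flox sedentary hearts. Its sedentary groups overlapped at -0.13 ± 0.17 (adjusted p = 0.794) in edgeR, and without KO sedentary 1 the value was 0.0080.

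For subunit 6a the muscle isoform's share was also lower in KO sedentary than in Flox sedentary hearts, though exercise libraries lay within the KO sedentary range. Cox6a2, its muscle isoform, had 954, 1262 and 779 CPM in KO exercise, 688, 1056 and 1290.02 in KO sedentary, 1023, 1404 and 1459.9 in Flox exercise and 1503, 1151 and 1055 in Flox sedentary hearts. Cox6a1 had 90.3, 89.8 and 88.1 CPM in KO exercise, 98.2, 87.9 and 108 in KO sedentary, 105, 93.7 and 109.8 in Flox exercise and 104, 76.5 and 84.2 in Flox sedentary hearts. Cox6a2 was at -0.29 ± 0.24 (adjusted p = 0.654) and Cox6a1 at 0.15 ± 0.12 (adjusted p = 0.645) in edgeR under the sedentary label, and the sedentary groups overlapped for each. Cox6a2 was at -0.090 without KO sedentary 1, -0.13 without Flox sedentary 1 and -0.51 without KO sedentary 3. Cox6a1 was at 0.056 without Flox sedentary 2, 0.066 without KO sedentary 3 and 0.29 without Flox sedentary 1. Cox6a2 made up 87.5% to 92.3% of the pair in KO sedentary and 92.6% to 93.8% in Flox sedentary hearts, so the shares did not overlap between these groups. KO exercise 1 (91.4%) and 3 (89.8%) and Flox exercise 1 (90.7%) lay within the KO sedentary range. Cox4i2, an isoform known for high expression in lung, took 0.425% to 0.645% of the sum with Cox4i1 in all libraries. It had 6.75, 7.69 and 5.12 CPM in KO exercise, 7.33, 6.27 and 6.57 in KO sedentary, 7.81, 6.31 and 10.6 in Flox exercise and 10.3, 7.35 and 6.16 in Flox sedentary hearts, with no order by group.

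The genes of ATP synthase subunit c, whose mature proteins are the same, differed as well. Atp5g1 had 945, 979.9 and 785 CPM in KO exercise, 786, 784 and 836 in KO sedentary, 976, 905 and 1176 in Flox exercise and 1111, 963 and 835 in Flox sedentary hearts. KO sedentary 3 and Flox sedentary 3 overlapped, at -0.27 ± 0.15 (adjusted p = 0.441) in edgeR. Its share of the 3 genes was 47.8%, 49.9% and 50.8% in KO sedentary hearts, against 46.0%, 45.5% and 44.9% in Flox sedentary hearts, and the other libraries lay between 44.3% and 46.7%. Atp5g2 had 14.5, 15.8 and 19.2 CPM in KO exercise, 11, 14.1 and 15.7 in KO sedentary, 17.6, 19.5 and 29.1 in Flox exercise and 17.8, 16.8 and 15.8 in Flox sedentary hearts. Its level is uncertain, because 87.7% of its stretches of 31 bases also occur in the gene entry Gm10175, which was listed at 187 to 289 CPM. Atp5l shares 54.3% with Gm10221 in the same way, which was at 32.2 to 44.8 CPM in KO sedentary and 67.9 to 77.4 CPM in Flox sedentary hearts. The mean Atp5g1 share of the 3 genes was 4.05 percentage points higher in KO sedentary than in Flox sedentary hearts. With Gm10175 added to the sum, it was 3.04 points higher.

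**Figure D4:**
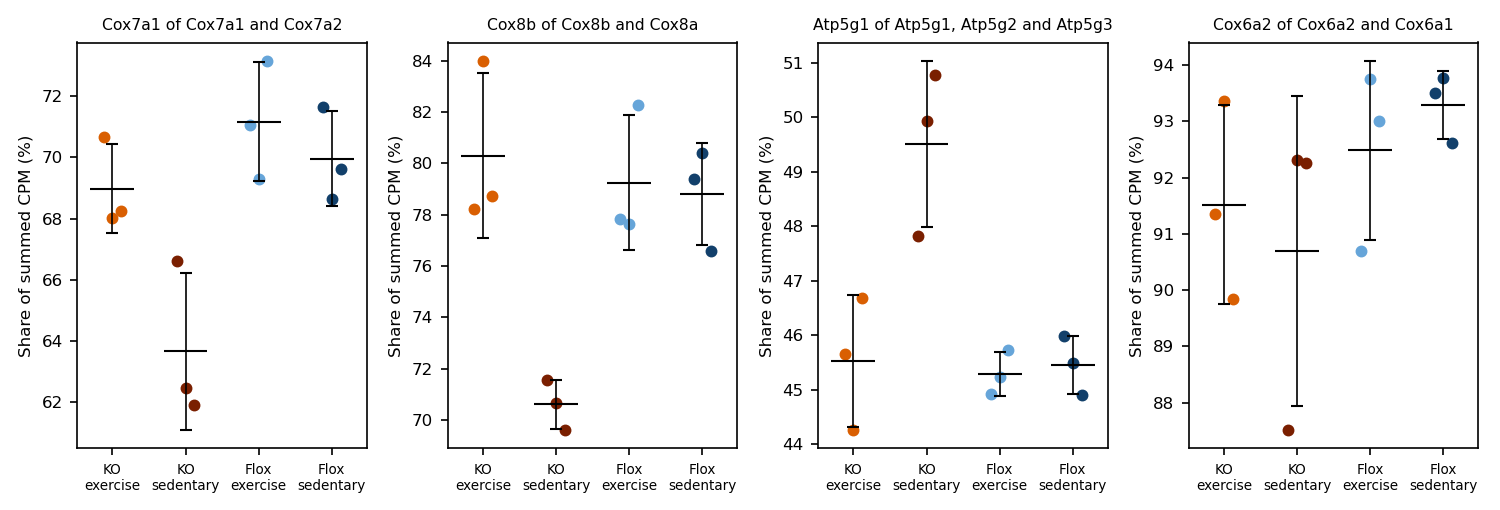
Share of 1 isoform in the summed CPM of its pair or trio (percent) per library (points), with the group mean (line) and SD (bars), n = 3 libraries a group. KO sedentary hearts lie below all other libraries for Cox7a1 and Cox8b and above all others for Atp5g1, and lie below Flox sedentary hearts but overlap exercise libraries for Cox6a2. The axes do not start at 0.

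The promoters of the genes whose shares set KO sedentary hearts apart, and of Atp5k, which had the lowest log2 fold change, are shown here to set the muscle isoforms beside their partners. Each is the 250 bases before the RefSeq start, read 5′ to 3′ on the gene's strand in build GRCm38.p6. Capitals mark matches to the motifs searched, which were NRF1 (GCGCA, any base, GCGC), ERR (AAGGTCA), ETS (CCGGAAGT), YY1 (AAGATGGC), SP1 (GGGCGG), the CCAAT box (CCAAT) and the TATA box (TATAAA), on both strands, with overlaps allowed.
Cox7a1, muscle isoform, chr7:30183921-30184170, plus strand: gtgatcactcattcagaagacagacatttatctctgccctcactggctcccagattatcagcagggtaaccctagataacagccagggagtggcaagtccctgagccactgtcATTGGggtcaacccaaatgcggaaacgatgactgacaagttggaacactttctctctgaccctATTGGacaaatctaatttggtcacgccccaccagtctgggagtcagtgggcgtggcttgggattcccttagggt
Cox7a2, partner, chr9:79759854-79760103, minus strand: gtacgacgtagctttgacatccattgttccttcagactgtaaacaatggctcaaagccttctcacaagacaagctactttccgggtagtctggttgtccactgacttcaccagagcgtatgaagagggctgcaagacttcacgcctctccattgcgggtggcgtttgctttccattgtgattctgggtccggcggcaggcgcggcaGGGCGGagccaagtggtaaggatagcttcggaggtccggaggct
Cox8b, muscle isoform, chr7:140900447-140900696, minus strand: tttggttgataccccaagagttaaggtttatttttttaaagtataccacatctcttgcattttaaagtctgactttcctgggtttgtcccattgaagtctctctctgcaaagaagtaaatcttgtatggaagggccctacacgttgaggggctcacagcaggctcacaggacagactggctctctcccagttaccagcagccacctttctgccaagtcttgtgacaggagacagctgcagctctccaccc
Cox8a, partner, chr19:7217617-7217866, minus strand: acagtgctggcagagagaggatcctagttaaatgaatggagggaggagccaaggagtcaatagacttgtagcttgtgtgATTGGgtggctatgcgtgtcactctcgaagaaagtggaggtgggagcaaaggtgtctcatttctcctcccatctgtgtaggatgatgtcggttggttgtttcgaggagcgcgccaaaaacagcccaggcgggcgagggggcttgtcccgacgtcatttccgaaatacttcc
Atp5g1, chr11:96075632-96075881, minus strand: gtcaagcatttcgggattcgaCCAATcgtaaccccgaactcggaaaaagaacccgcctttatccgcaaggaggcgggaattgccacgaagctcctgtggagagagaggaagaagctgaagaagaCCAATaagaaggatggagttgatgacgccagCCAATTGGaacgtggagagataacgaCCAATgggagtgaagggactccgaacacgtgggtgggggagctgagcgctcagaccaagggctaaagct
Atp5g3, chr2:73911327-73911576, minus strand: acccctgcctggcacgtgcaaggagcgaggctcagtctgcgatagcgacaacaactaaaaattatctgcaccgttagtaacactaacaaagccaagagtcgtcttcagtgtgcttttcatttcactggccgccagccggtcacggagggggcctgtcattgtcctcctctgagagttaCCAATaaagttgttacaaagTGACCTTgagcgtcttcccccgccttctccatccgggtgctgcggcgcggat
Atp5k, chr5:108434400-108434649, minus strand: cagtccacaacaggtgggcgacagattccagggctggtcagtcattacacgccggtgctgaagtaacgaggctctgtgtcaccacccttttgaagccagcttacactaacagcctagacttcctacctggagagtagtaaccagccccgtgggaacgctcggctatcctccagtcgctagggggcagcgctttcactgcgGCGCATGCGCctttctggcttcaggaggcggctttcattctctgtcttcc

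The capitals in Cox7a1 and Atp5g1 are CCAAT boxes, 2 in the first and 5 in the second, that in Cox7a2 is an SP1 motif, that in Cox8a a CCAAT box, those in Atp5g3 a CCAAT box and an ERR motif, and that in Atp5k an NRF1 motif. Cox8b had none of the motifs in the bases shown, which says only that these letters are absent there. In the 50 bases after the start, which are not shown, Cox8b had a TATA box, Atp5g3 an NRF1 motif, Atp5k an ERR motif and Cox8a an ETS motif. Another ETS motif of Cox8a ran across the start and is not in capitals. RefSeq promoters were matched for 33 of the 45 members. In windows of 250 bases before to 50 after the start, the NRF1 motif occurred in 10 of 33 members (30.3%), against 10.67% of 11252 tested genes. The ERR motif occurred in 5 (15.15%), against 3.964%, and ETS in 4 (12.12%), against 8.478%. SP1 occurred in 11 (33.33%), against 66.39%, and the CCAAT box in 18 (54.55%), against 42.33%. YY1 (6.061%, against 4.906%) and TATA (9.091%, against 9.189%) were close to the tested genes. Within the members, the ERR motif was found in 4 of 14 complex V and 1 of 3 complex II promoters, and in 0 of 5 in complex III and 0 of 11 in complex IV. A match is a description of the letters and not of a bound site.

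The KO sedentary hearts were not alike among themselves, and their differences followed transcript length. KO sedentary 1 had the lowest level of 27 subunits, with a median transcript length of 544 bases, and KO sedentary 3 of 7 subunits, with a median of 1653 bases. For 23 subunits under 700 bases, the median of log2 CPM minus the gene mean was -0.50 in KO sedentary 1, -0.22 in KO sedentary 2 and 0.053 in KO sedentary 3. For 9 subunits over 1500 bases it was -0.11, -0.29 and -0.34 in those libraries. In Flox sedentary hearts the short class lay at 0.17, 0.075 and -0.097 and the long class at 0.13, 0.15 and 0.021. So the long subunits were separated between the sedentary groups by class median and the short ones overlapped.

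Other genes showed the same gradient. The difference of KO sedentary 1 from the mean of KO sedentary 2 and 3 had a median of -0.43 over subunits under 700 bases and 0.18 over those above 1500 bases, against -0.44 over 72 and 0.23 over 844 other genes of 100 CPM or more. Its correlation with log2 length was 0.76 over 45 subunits and 0.43 over 1146 other genes, given as a description across genes that share the same libraries. The part of length in the differences between groups was not tested.

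**Figure D5:**
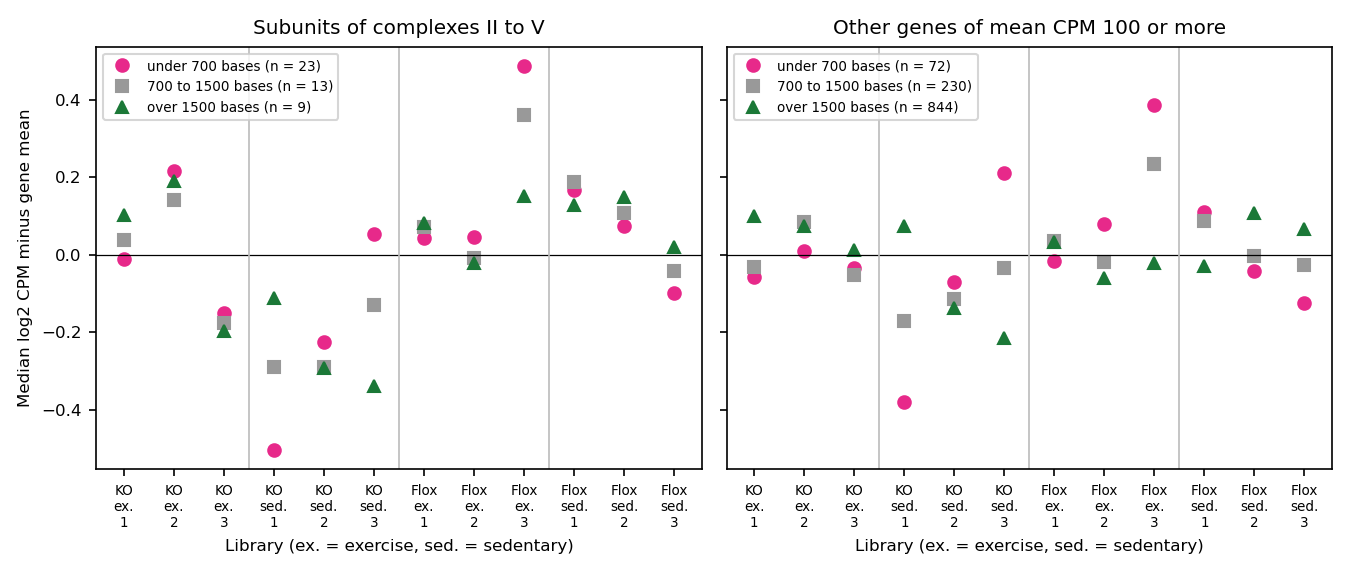
Median over genes of log2 CPM minus the gene's mean, by library and transcript length class, for the 45 subunits (left) and for other genes of mean CPM 100 or more (right). In KO sedentary hearts the short class is lowest in replicate 1 and highest in replicate 3, in both panels, and in Flox exercise 3 the short class is the highest.

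After the group means were removed, the correlation of a subunit with the mean of the other 44 over the 12 libraries, which all share scaling and depth, was 0.99 for Uqcrq, 0.96 for Cox7a1 and 0.96 for Cox5b. It was 0.30 for Atp5a1 and 0.42 for Sdhc, and -0.19 for Sdha, the only value below 0. The transcripts of Sdha (2900 bases), Atp5a1 (2572) and Sdhc (1993), at the lower end, are long, and those of Uqcrq (504) and Cox7a1 (439) are short. Length did not order all members. The short Cox6a1 (571 bases), Atp5g2 (586) and Cox8a (550) had 0.50, 0.51 and 0.52. The long Atp5g1 (2676) and Atp5f1 (1604) had 0.92 and 0.87.

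Genes that work beside the subunits were counted from lists. The 6 mitochondrially encoded subunits of complexes III to V lay below 0 in KO sedentary over Flox sedentary hearts in 6 of 6, with a median of -0.31 equal to that of the nuclear ones to 2 decimals, and 0 passed in edgeR. Among them mt-Atp8 had 169.8, 156 and 165 CPM in KO sedentary hearts, against 294, 361 and 369.9 CPM in Flox sedentary hearts. All KO sedentary values were below the Flox sedentary values, at -1.06 ± 0.25 (adjusted p = 0.111) in edgeR, and mt-Atp8 overlaps mt-Atp6, so reads of the pair may be split between them. The others were mt-Atp6 at -0.52, mt-Co3 at -0.33, mt-Co1 at -0.28, mt-Cytb at -0.24 and mt-Co2 at -0.19. For KO exercise over KO sedentary hearts 6 of 6 lay above 0, with a median of 0.37.

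Assembly factors lay nearer to 0 than the subunits under the sedentary label, with 0 passing in edgeR in any list. Their medians were -0.04 for 4 of complex II, -0.20 for 7 of complex III, -0.18 for 25 of complex IV and -0.19 for 6 of complex V, with 37 of these 42 below 0. Fmc1, a complex V assembly factor, had 34.3, 33.8 and 39.6 CPM in KO sedentary hearts, against 56.5, 53.8 and 47.6 CPM in Flox sedentary hearts. Its groups did not overlap, at -0.55 ± 0.17 (adjusted p = 0.186) in edgeR. Higd2a, which takes part in complex IV assembly, was separated at -0.35 ± 0.13 (adjusted p = 0.259), Uqcc2 of complex III overlapped at -0.29 ± 0.15 (adjusted p = 0.426) and Sdhaf3 of complex II at -0.30 ± 0.17 (adjusted p = 0.455) in edgeR.

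Coenzyme Q genes lay below 0 in 12 of 13, with a median of -0.23. Coq10a, which binds coenzyme Q and helps it work in the chain, had 159, 144 and 141 CPM in KO sedentary hearts, against 226, 208 and 201 CPM in Flox sedentary hearts. Its groups were separated, at -0.51 ± 0.12 (adjusted p = 0.111) in edgeR. Regulators of respiratory genes lay below 0 in 13 of 15 with a median of -0.17, and none was past an unadjusted p of 0.05. Esrrb had the smallest p among them, at -0.36 ± 0.17 (adjusted p = 0.373) in edgeR.

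Partners under other symbols differed from one another. Ndufa4, now placed in complex IV, had 479, 580.1 and 692 CPM in KO sedentary hearts, against 739.6, 745 and 661 CPM in Flox sedentary hearts. Its groups overlapped, at -0.29 ± 0.17 (adjusted p = 0.468) in edgeR. Cycs, the cytochrome c that runs between complexes III and IV, had 400.4, 375 and 401 CPM in KO sedentary hearts, against 435, 394 and 385 CPM in Flox sedentary hearts. It lay near 0 at -0.046 ± 0.13 (adjusted p = 0.908) in edgeR. Atpif1, the inhibitor of ATP synthase, had 113, 114 and 125 CPM in KO sedentary hearts, against 122, 152 and 129 CPM in Flox sedentary hearts. It overlapped too, at -0.19 ± 0.17 (adjusted p = 0.67) in edgeR. Etfdh, which delivers electrons from fatty acid oxidation to coenzyme Q, had 418, 287 and 262 CPM in KO sedentary hearts, against 421, 476 and 449 CPM in Flox sedentary hearts. KO sedentary 1 lay only just below the Flox sedentary range and the other KO sedentary hearts far below it, at -0.48 ± 0.17 (adjusted p = 0.247) in edgeR.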

How the data were processed

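RNA was measured in 12 whole-heart libraries, 3 in each of 4 groups, after ribosomal RNA depletion with a RiboZero kit and an NEB library kit, per the labels' protocols. The authors deposited estimated counts, 1 row a gene symbol. FastQC and Salmon are named in the submitters' processing notes without version, as are builds mm9 and mm10 without a role. For annotation release, strandedness and gene-level summing: not given in the sources used here. Estimated counts were rounded to whole numbers, since 21.6% to 26.4% of the values per library departed from a whole number by over 1e-06. Salmon divides reads among near-identical sequences, and without a stated strand setting reads from a gene and an overlapping gene on the other strand cannot be told apart (Cox4i1 with Emc8, Cox6a2 with Itgad, Atp5f1 with Wdr77, Atp5j with Gabpa, Uqcrc2 with Pdzd9 and others).

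Entries named for cloning vectors (1696 of 55874) were left out. The test was that of edgeR 4.0.16 (R 4.3.3, limma 3.58.1): TMM scaling after filterByExpr, 1 mean per group fitted over the 12 libraries, robust glmQLFit, glmQLFTest and Benjamini-Hochberg adjustment over all 15226 genes at 0.05. CPM are on TMM-scaled library sizes, and each standard error is the absolute log2 fold change over the square root of F. Alternatives were DESeq2 1.42.0, other scaling and filters, leaving out each library, a replicate block and a covariate of atrial markers. Further ones left out the mitochondrially encoded genes, or summed Atp5g2 with Gm10175 and Atp5l with Gm10221. Between replicates the chi-square per degree of freedom was 17.7 to 89.9, well beyond sampling noise, and each library was counted as its own sample.

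Lengths, positions and strands come from GENCODE vM21, promoters from RefSeq (GRCm38.p6). Promoters were not matched for Atp5a1, Atp5f1, Atp5mpl, Cox4i1, Cox4i2, Cox6a2, Cox6c, Cyc1, Sdhc, Uqcrb, Uqcrc2 and Uqcrq. The members, lists and tests were chosen with earlier results of these data known. Values in every library are given for Cited4, for the 2 members of each complex with the smallest p in each comparison within a genotype or treatment label, for the member of each complex with the highest CPM per kilobase, and for the isoform pairs. Other pathway genes are the 1 of each list with the smallest p under the sedentary label, with Ndufa4, Cycs, Atpif1 and the mitochondrially encoded subunits.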

Additional observations from a re-analysis of the deposited data

How the results depend on the processing

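With DESeq2 in place of edgeR, the subunits past an adjusted p of 0.05 were 6 for the sedentary genotype comparison, 1 for exercise over sedentary in KO, 3 for KO over Flox averaged and 1 for exercise over sedentary averaged, against 0 in edgeR for each. The cause was not tested. Over all genes DESeq2 passed 394, against 19 in edgeR, for the sedentary and 10, against 1, for the exercise genotype comparison, 121, against 3, and 49, against 0, for exercise over sedentary in KO and in Flox, 172, against 8, and 51, against 4, for the averages, and 50, against 0, for the interaction. For the sedentary genotype comparison edgeR passed 120 without a filter, 5 at a mean CPM of 10 or more, 37 with the block, 2 with the atrial covariate and 2 to 479 with 1 library left out. For exercise over sedentary in KO that range was 0 to 566, and both highest counts came without KO sedentary 1. The replicate block gave the same call for each of the 7 comparisons, with 0 subunits past the threshold and a median of -0.32 under the sedentary label. Same-numbered libraries had correlations of -0.32 to 0.31 over 18 pairs, 6 of them over 0.1. These values show no steady pairing by number, but cannot exclude a shared batch, which the labels do not give. With atrial markers as a covariate the median under the sedentary label was -0.18 with 40 of 45 below 0, and Cox4i2 turned to 0.17. Leaving out 1 library at a time gave medians of -0.38 to -0.25 for the sedentary genotype comparison. For exercise over sedentary in Flox the median ran from -0.036 to 0.18, with 10 to 40 subunits above 0, and Sdhb ran from -0.077 to 0.12, Uqcrb from -0.0096 to 0.26 and Uqcrq from -0.018 to 0.24, the low end without Flox exercise 3. Under the exercise label 27 to 43 subunits lay below 0. For KO exercise over KO sedentary 0 to 1 subunits passed, and Cox7a2 under the sedentary label ran from -0.32 to 0.0080. Of 819 alternatives for 41 values of named subunits, 807 kept direction and side of the threshold, 6 reversed and 6 passed the threshold. Many of these alternatives left out a library of neither group compared, which could move the value little. No named value had passed in the main fit, so a pass could only be gained. The members with the lowest levels were Cox4i2 and Atp5g2 (means of 7.35 and 17.2 TMM-scaled CPM). The part of counting noise in the spread of single members was not tested.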
